A study of Mus musculus with 12 samples.

Results

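The Wnt genes described here are 10 of the 24062 genes counted in mouse kidneys. They comprise the ligand genes Wnt9a, Wnt9b, Wnt4, Wnt5a, Wnt7b and Wnt11, the R-spondin receptor gene Lgr4, the beta-catenin gene Ctnnb1, the transcription factor gene Lef1 and the feedback gene Axin2. They were taken by gene symbol from the count table. The set was chosen by name with earlier results of these kidneys known, and it is led by Wnt9a, which was selected on its fold change and p-value between CrePlus and CreMinus kidneys averaged over surgery, as 1 of 78 genes called there. The Cre differences of these 10 genes are therefore a description and carry no test.

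The kidneys came from a Pkd1 mouse model of polycystic kidney disease, in which loss of polycystin-1 from the tubules leads to cysts. All mice were given tamoxifen, were adults operated on at 6 to 8 weeks of age, and gave kidney tissue 4 weeks after surgery. UNx CrePlus mice carried Cre and had 1 kidney removed (unilateral nephrectomy, UNx), and UNx CreMinus mice had the same operation without Cre. Sham CrePlus mice carried Cre and had a sham operation, and sham CreMinus mice had neither Cre nor kidney loss. The labels do not give the Cre driver, the Pkd1 allele or the cells in which Cre acted. Each of the 4 groups had 3 libraries of whole-kidney RNA, with 1 library per labelled sample. The title of sham CrePlus replicate 1 repeats its group name where every other title has a second number, so it is not known how that sample was identified. Without it, the sham difference between CrePlus and CreMinus kidneys was 0.64 on the log2 scale for Wnt9a, 0.66 for Wnt7b and -0.70 for Lef1, beside 0.72, 0.67 and -0.76 with it. Nothing in the labels says how the animals were related, so p-values measure only the spread between these samples.

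Wnt proteins are secreted lipid-modified ligands that bind Frizzled receptors. In the canonical branch, Wnt binding stops a destruction complex built on axin from degrading beta-catenin, which then acts with TCF and LEF factors to switch on genes such as Axin2. Wnt9b and Wnt4 are known for driving nephron formation in the mouse embryo, Wnt7b for shaping the medulla and Wnt11 for branching of the ureteric bud. Wnt5a acts mainly without beta-catenin, and Lgr4 binds R-spondins, which keep Frizzled receptors at the cell surface. Wnt9a is best known for its role in joint and skeletal development.

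Wnt9a (gene ID 216795) lies on the plus strand at chr11:59306849-59333552 of GRCm38. The nearest annotated protein-coding genes are Wnt3a, 16097 bases away, and Prss38, 37873 bases away. The sequences at the starts of Wnt9a and Lef1 are shown because of their Cre differences. These were the largest positive and the largest negative of the 9 members that passed the filter on low counts. Each window runs from 250 bases before to 50 bases after a RefSeq transcript start, on GRCm38.p6 and the plus strand. The Wnt9a window is chr11:59306680-59306979. Lef1 (gene ID 16842, chr3:131110297-131224357, plus strand) has 4 such windows, and the one shown, at chr3:131156044-131156343, belongs to a start inside the gene. Capitals mark the TCF and LEF core motif, written CTTTGA or, as its reverse complement on the other strand, TCAAAG.
Wnt9a: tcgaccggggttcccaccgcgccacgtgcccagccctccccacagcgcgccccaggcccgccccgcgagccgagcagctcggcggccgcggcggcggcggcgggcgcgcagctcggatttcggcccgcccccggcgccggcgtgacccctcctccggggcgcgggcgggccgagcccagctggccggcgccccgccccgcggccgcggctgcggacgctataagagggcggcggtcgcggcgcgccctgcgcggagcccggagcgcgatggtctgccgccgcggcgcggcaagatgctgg
Lef1: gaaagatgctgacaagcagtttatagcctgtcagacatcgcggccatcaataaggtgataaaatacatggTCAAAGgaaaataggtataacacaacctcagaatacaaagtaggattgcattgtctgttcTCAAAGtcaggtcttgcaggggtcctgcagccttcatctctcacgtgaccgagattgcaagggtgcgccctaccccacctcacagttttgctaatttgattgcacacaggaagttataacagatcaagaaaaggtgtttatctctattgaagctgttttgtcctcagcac

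Of the 10 genes, 8 matched the RefSeq promoter table, with 13 windows between them. The motif stood in 1 of the 4 Lef1 windows, with 2 copies, and in 1 Wnt11 window. No window of Wnt9a, Wnt9b, Wnt4, Axin2, Ctnnb1 or Lgr4 held these letters. The only windows of Axin2 (chr11:108920099-108920398) and Wnt9b (chr11:103749772-103750071) lie inside the annotated genes. The sequence at the outer start of these genes was therefore not searched. Among all 32851 windows of the same 300 bases, 5257 (16%) held at least 1 copy on either strand. A match is a description of the letters and not a measured binding site.

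The other 8 genes lie at chr11:103727362-103775272 (Wnt9b), chr4:137277635-137299501 (Wnt4), chr14:28504543-28527448 (Wnt5a) and chr15:85535437-85581821 (Wnt7b). Wnt11 lies at chr7:98835084-98854747, Axin2 at chr11:108917828-108950783, Ctnnb1 at chr9:120933400-120960507 and Lgr4 at chr2:109917647-110014257. The libraries do not mark the strand. Wnt5a shares 358 exon bases with the annotated antisense gene Gm2670, Wnt7b 324 with AU022754, Axin2 209 with Gm11670 and Lef1 1208 with Gm43352. Over these shared bases, the reads of each pair of genes could therefore not be told apart. The same holds for reads of Wnt11 over the 364 exon bases it shares with the opposite-strand pseudogene Gm8398, and for reads of Ctnnb1 over the 759 exon bases it shares with Ulk4. Wnt9a shared no exon bases with another annotated gene. Wnt9b overlaps the neighbouring Wnt3 gene by 1098 bases, and Wnt3 had 0 counts in all 12 libraries.

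Levels are given as CPM, the counts of a gene scaled to a common library total. Library totals were 18914300 to 22480895 counts in 8 libraries. The 3 UNx CrePlus libraries and 1 UNx CreMinus library (replicate 1) were deeper, with 41699032 to 42785476 counts. Counts of Xist and Y-linked genes placed 7 libraries as female and 5 as male, the males being replicates 1 and 2 of UNx CrePlus, replicate 1 of UNx CreMinus and replicate 3 of each sham group. All 8 proximal tubule markers, such as Slc34a1 and Lrp2, were detected in every library, at 12000 to 14800 CPM in sum, so the libraries carry the labelled tissue. Pkd1, the targeted gene, was 0.39 ± 0.18 (SE) lower on the log2 scale in UNx CrePlus than in UNx CreMinus kidneys and 0.32 ± 0.18 lower in sham CrePlus than in sham CreMinus kidneys. Neither passed the test (edgeR quasi-likelihood, Benjamini-Hochberg adjusted p = 0.482 and 1), and counts over the whole gene do not show which part the Cre deletes.

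The levels of the 10 genes spanned a wide range. On the per-length scale, as CPM per kilobase of annotated exon averaged over the 12 libraries, Ctnnb1 stood at 123 and Lgr4 at 44.2. The ligands were far lower, with Wnt5a at 1.35, Wnt7b at 1.06, Wnt9a at 0.708, Wnt9b at 0.448 and Wnt4 at 0.396 CPM per kilobase. Axin2 followed at 0.244, Wnt11 at 0.0719 and Lef1 at 0.0559 CPM per kilobase. The ranges of Ctnnb1 (115 to 134) and Lgr4 (31.3 to 53.6) overlapped with those of no other member over the 12 libraries. Every other pair of neighbours in this order overlapped in range, from Wnt5a against Wnt7b to Wnt11 against Lef1.

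Among all 19 mouse Wnt ligand genes, Wnt5b had the highest level per length, at 3.21 CPM per kilobase with a range of 1.88 to 4.5. Wnt9a was the fourth, behind Wnt5b, Wnt5a and Wnt7b. No count of Wnt3, Wnt3a or Wnt8a was found in any library, so the neighbour of Wnt9a was not detectable at this depth. Wnt9a made up 11% to 12.9% of the summed ligand level in UNx CrePlus kidneys and 5.49% to 6.73% in UNx CreMinus kidneys. Its share was 7.28% to 12.1% in sham CrePlus kidneys and 5.61% to 7.07% in sham CreMinus kidneys. The summed level of all 19 ligands was 8.04 ± 0.601 CPM per kilobase in UNx CrePlus, 8.18 ± 2.19 in UNx CreMinus, 9.15 ± 1.35 in sham CrePlus and 8.24 ± 1.25 in sham CreMinus kidneys (SD, n = 3 each), which overlapped in all 4 groups.

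**Figure D1:**
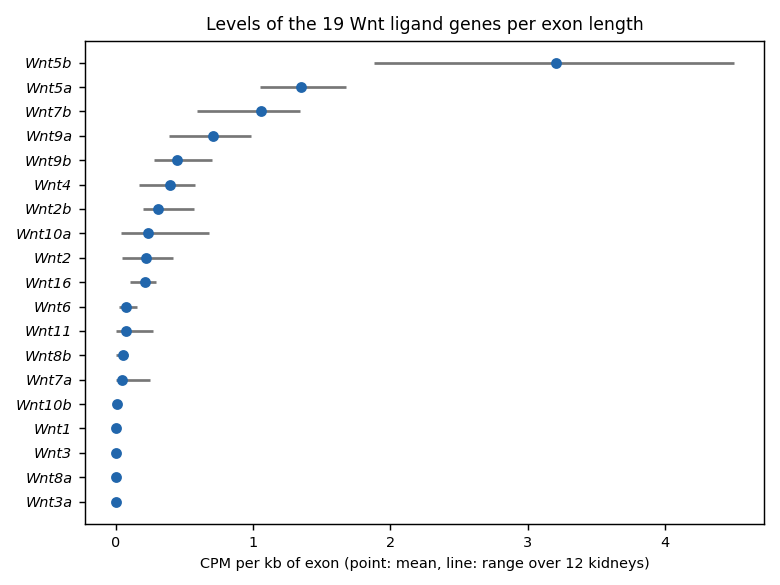
Level of each of the 19 Wnt ligand genes in CPM per kilobase of exon, with the mean over the 12 kidneys as a point and the range as a line. Wnt5b is highest at 3.21, and Wnt9a is the fourth gene at 0.708.

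Wnt9a had a higher CPM in every kidney with Cre than in any kidney without it. It had 2.99, 3.17 and 3.27 CPM in the 3 UNx CrePlus kidneys (129, 129 and 143 counts), against 1.29, 1.75 and 1.82 CPM in the UNx CreMinus kidneys (50, 38 and 36 counts). In sham CrePlus kidneys it had 3.22, 2.44 and 3.06 CPM (76, 51 and 62 counts), against 1.9, 1.79 and 1.59 CPM in sham CreMinus kidneys (42, 38 and 34 counts). The groups did not overlap under either operation, and the lowest CrePlus kidney (2.44 CPM, sham) stood above the highest CreMinus kidney (1.9 CPM, sham). The log2 difference, CrePlus over CreMinus, was 0.97 ± 0.20 (SE) in UNx kidneys, a ratio of 1.96. It was 0.72 ± 0.20 in sham kidneys, a ratio of 1.65, and 0.85 ± 0.14 averaged over surgery.

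Between operations, Wnt9a differed by less than its spread between kidneys. Means were 3.15 ± 0.144 CPM in UNx CrePlus and 2.91 ± 0.414 CPM in sham CrePlus kidneys (SD, n = 3 each), a log2 difference of 0.11 ± 0.19. Without Cre they were 1.62 ± 0.291 CPM in UNx and 1.76 ± 0.157 CPM in sham kidneys (SD, n = 3 each), a log2 difference of -0.13 ± 0.20. The Wnt9a ranges overlapped in both comparisons. The difference between the Cre effects in UNx and in sham kidneys was 0.24 ± 0.28 on the log2 scale and did not pass the test (edgeR, adjusted p = 1).

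**Figure D2:**
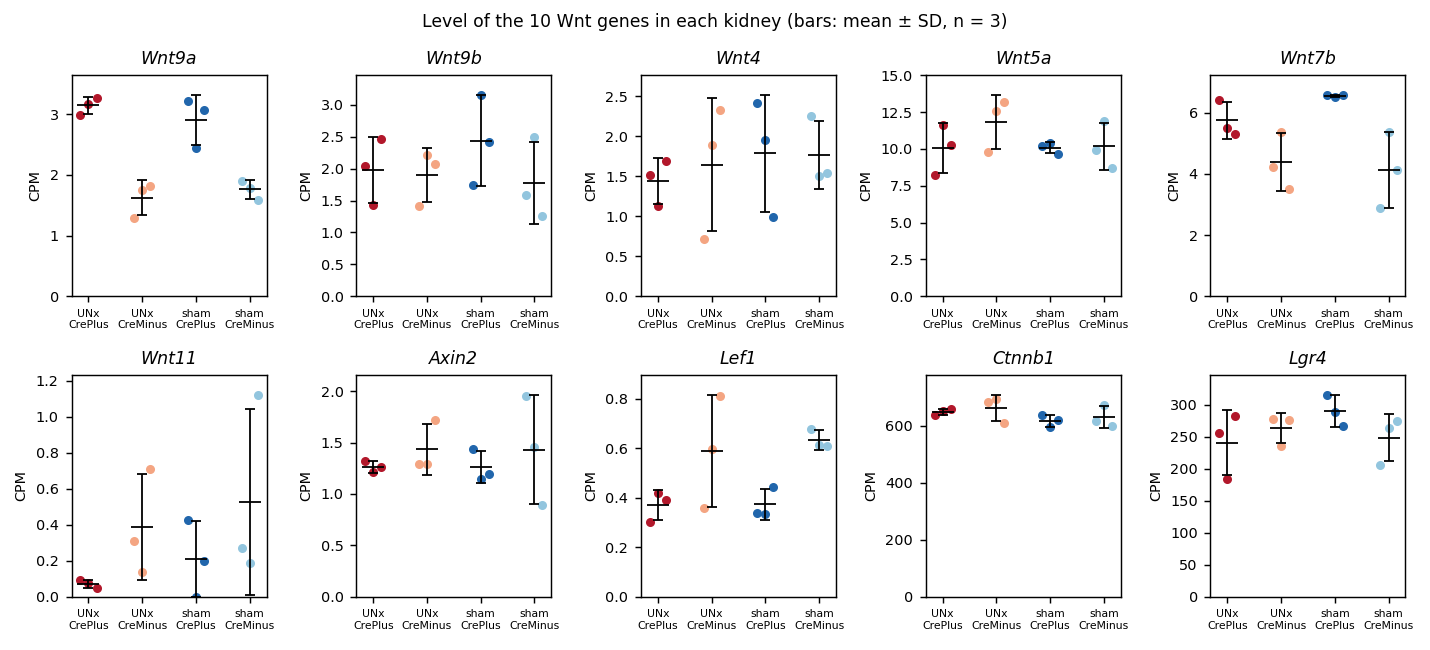
Level of each of the 10 Wnt genes in CPM in every kidney (points), with the mean and SD of each group of 3 (bars), on axes that start at 0. Wnt9a sits at 2.44 to 3.27 in the 6 CrePlus kidneys and at 1.29 to 1.9 in the 6 CreMinus kidneys, whereas the CrePlus and CreMinus kidneys of Ctnnb1, Axin2 and Wnt5a overlap.

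In UNx kidneys, depth and sex were unevenly spread over Cre status, so the Wnt9a values are also given within each. Every CrePlus kidney stood above every CreMinus kidney, so each such ratio had to lie above 1. The ratios are therefore a description and no check on depth or sex. Among male libraries the Wnt9a ratio, CrePlus over CreMinus, was 2.4 in UNx kidneys (2 against 1 library) and 1.93 in sham kidneys (1 against 1). Among female libraries the Wnt9a ratio was 1.83 in UNx kidneys (1 against 2) and 1.54 in sham kidneys (2 against 2). Within the deep UNx libraries it was 2.45 (3 against 1), and the sham libraries, which were all of the lower depth, gave the ratio of 1.65 above. No UNx CrePlus library had the lower depth, so depth and Cre cannot be told apart among the shallower UNx libraries.

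The marker sums of several other cell states were on average highest in the UNx CrePlus kidneys. The 8 macrophage markers, all detected in every library, summed to 384 to 636 CPM in UNx CrePlus and 265 to 310 CPM in UNx CreMinus kidneys. In sham kidneys they summed to 291 to 553 CPM with Cre and 258 to 577 CPM without it. The 8 fibroblast markers, also detected in every library, summed to 245 to 614 CPM in UNx CrePlus and 180 to 340 CPM in UNx CreMinus kidneys, and to 145 to 452 CPM in sham CrePlus and 179 to 320 CPM in sham CreMinus kidneys. The 7 proliferation genes summed to 39 to 145 CPM in UNx CrePlus and 22.9 to 62.8 CPM in UNx CreMinus kidneys, and to 27.8 to 52.3 CPM in sham CrePlus and 19.6 to 31.4 CPM in sham CreMinus kidneys. The 6 tubular injury genes summed to 2290 to 3680 CPM in UNx CrePlus and 1010 to 3310 CPM in UNx CreMinus kidneys. In sham kidneys the injury sum was 750 to 3250 CPM with Cre and 880 to 2120 CPM without it. Gene by gene, all 6 injury genes were higher with Cre, with median log2 differences of 0.57 in UNx and 1.27 in sham kidneys. All 7 proliferation genes were also higher with Cre, with medians of 1.13 in UNx and 0.71 in sham kidneys. Of the 8 macrophage markers 7 were higher with Cre in UNx and 3 in sham kidneys, and the 8 fibroblast markers gave the same numbers. Other lists ran the opposite way. The 7 loop of Henle and distal tubule markers summed to 6120 to 9080 CPM in UNx CrePlus and 9400 to 9780 CPM in UNx CreMinus kidneys, with no overlap and all 7 genes lower, and to 6880 to 9670 CPM in sham CrePlus and 8140 to 9150 CPM in sham CreMinus kidneys. The 6 podocyte markers were all lower with Cre under both operations, with median log2 differences of -0.35 in UNx and -0.32 in sham kidneys. Their sums were 398 to 744 CPM in UNx CrePlus, 558 to 808 CPM in UNx CreMinus, 392 to 795 CPM in sham CrePlus and 645 to 784 CPM in sham CreMinus kidneys. No marker of any list passed the test in a Cre comparison (edgeR). In bulk kidney RNA, a change in the number of cells of a type and a change in RNA per cell cannot be told apart, and the part of these cells in the Wnt9a level was not tested.

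The other 5 ligand genes were less uniform. Wnt7b, the ligand of the medulla, had 6.42, 5.51 and 5.31 CPM in UNx CrePlus kidneys, against 4.24, 5.38 and 3.5 CPM in UNx CreMinus kidneys. It had 6.57, 6.5 and 6.57 CPM in sham CrePlus kidneys, against 2.9, 5.36 and 4.11 CPM in sham CreMinus kidneys. The groups overlapped after UNx and did not overlap after sham surgery, with log2 differences of 0.39 ± 0.22 and 0.67 ± 0.22. All 3 UNx CrePlus kidneys lay below all 3 sham CrePlus kidneys for Wnt7b, by a log2 difference of -0.19 ± 0.22 that did not pass the test (edgeR, adjusted p = 0.944). The 9 collecting duct markers, all detected in every library, summed to 464 to 930 CPM in UNx CrePlus, 641 to 879 CPM in UNx CreMinus, 603 to 1190 CPM in sham CrePlus and 675 to 898 CPM in sham CreMinus kidneys. Their part in the Wnt7b level was not tested.

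Wnt9b and Wnt4, the ligands of embryonic nephron formation, overlapped between CrePlus and CreMinus kidneys under both operations. Wnt9b averaged 1.98 ± 0.525 CPM in UNx CrePlus and 1.9 ± 0.425 CPM in UNx CreMinus kidneys (SD, n = 3 each). In sham kidneys Wnt9b averaged 2.44 ± 0.709 CPM with Cre and 1.78 ± 0.636 CPM without it (SD, n = 3 each). The log2 differences of Wnt9b, CrePlus over CreMinus, were 0.07 ± 0.33 and 0.45 ± 0.34. Wnt4 was the most variable tested member, with a 3.35-fold range over the 12 kidneys. Its lowest value, 0.72 CPM, was in UNx CreMinus replicate 1 and its highest, 2.42 CPM, in sham CrePlus replicate 1. Its log2 differences for Cre were -0.16 ± 0.43 in UNx and 0.02 ± 0.44 in sham kidneys. Over the 8 alternatives other than leaving out a library, the UNx value ran from -0.31 to 0.98. In deep UNx libraries the Wnt4 ratio, CrePlus over CreMinus, was 2.01 (3 against 1 library). The ratio was 1.83 in male (2 against 1) and 0.803 in female UNx libraries (1 against 2). In sham kidneys it was 0.641 in male (1 against 1) and 1.16 in female libraries (2 against 2).

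Wnt5a, the mainly non-canonical ligand, had the most counts of the 6 ligand members. It had 8.23, 11.6 and 10.3 CPM in UNx CrePlus kidneys, against 9.77, 12.6 and 13.2 CPM in UNx CreMinus kidneys, which overlapped. In sham kidneys it had 10.2, 10.4 and 9.69 CPM with Cre, against 9.96, 11.9 and 8.74 CPM without it, which also overlapped. The log2 differences of Wnt5a for Cre were -0.23 ± 0.17 in UNx and -0.02 ± 0.17 in sham kidneys.

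Wnt11, the ligand of ureteric branching, was close to the limit of detection and did not pass the filter on low counts, so it has no fitted value. It had 4, 3 and 2 counts in the UNx CrePlus kidneys, against 12, 3 and 14 counts in the UNx CreMinus kidneys. In sham CrePlus kidneys it had 10, 0 and 4 counts, against 6, 4 and 24 counts in sham CreMinus kidneys. The 0 in sham CrePlus replicate 2 allows a Wnt11 level of up to 0.143 CPM (3 counts), which covers counting error only. The 3 UNx CrePlus kidneys, at 0.0458 to 0.0927 CPM, were all below the 3 UNx CreMinus kidneys, at 0.138 to 0.709 CPM, on 2 to 4 against 3 to 14 counts and with no test.

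Lgr4, the R-spondin receptor gene, had 255, 184 and 282 CPM in UNx CrePlus kidneys and 277, 236 and 276 CPM in UNx CreMinus kidneys. In sham kidneys it had 315, 288 and 266 CPM with Cre and 206, 264 and 275 CPM without it. Groups overlapped in both, with log2 differences of opposite sign, -0.13 ± 0.16 and 0.22 ± 0.16. The difference between these Lgr4 effects was -0.35 ± 0.23 and did not pass the test (edgeR, adjusted p = 1).

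Ctnnb1, which encodes beta-catenin, was the most even member, with a 1.16-fold range over the 12 kidneys. It averaged 649 ± 11.5 CPM in UNx CrePlus, 662 ± 46 CPM in UNx CreMinus, 618 ± 20.4 CPM in sham CrePlus and 630 ± 39.1 CPM in sham CreMinus kidneys (SD, n = 3 each). The log2 difference of Ctnnb1 for Cre was -0.03 ± 0.09 under both operations. These are transcript counts, and beta-catenin activity is set largely by protein stability, which was not measured.

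Lef1, the nuclear partner of beta-catenin with the motif in 1 of its 4 start windows, had the largest negative difference of the 9 fitted members. Wnt11 has no fitted value and is not in this ranking. It had 0.301, 0.418 and 0.389 CPM in UNx CrePlus kidneys (13, 17 and 17 counts), against 0.36, 0.598 and 0.811 CPM in UNx CreMinus kidneys (14, 13 and 16 counts). In sham CrePlus kidneys it had 0.339, 0.335 and 0.445 CPM (8, 7 and 9 counts), against 0.679, 0.611 and 0.608 CPM in sham CreMinus kidneys (15, 13 and 13 counts). The sham groups did not overlap, and the UNx groups did. The log2 differences were -0.63 ± 0.33 in UNx and -0.76 ± 0.35 in sham kidneys, and they rest on 7 to 17 counts per library. With a term for library depth in the fit, the UNx value was 0.05. In the deep UNx libraries alone the Lef1 ratio, CrePlus over CreMinus, was 1.03 (3 against 1 library), and in male UNx libraries it was 0.999 (2 against 1). In female libraries the Lef1 ratio was 0.553 in UNx (1 against 2) and 0.522 in sham kidneys (2 against 2). Lef1 is also a T cell gene. The 8 T cell markers found in the table, of 9 listed, were detected in every library and summed to 14.7 to 18.7 CPM in UNx CrePlus, 10.8 to 16.5 CPM in UNx CreMinus, 13.3 to 17.8 CPM in sham CrePlus and 11.6 to 17.3 CPM in sham CreMinus kidneys. Taken gene by gene, 6 of the 8 were higher for Cre in UNx kidneys, with a median log2 difference of 1.23, and 4 of the 8 in sham kidneys, with a median of -0.02. The part of T cells in the Lef1 level was not tested.

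Axin2, the feedback gene commonly read as a measure of canonical Wnt activity, had 1.32, 1.21 and 1.26 CPM in UNx CrePlus kidneys, against 1.29, 1.29 and 1.72 CPM in UNx CreMinus kidneys. In sham kidneys it had 1.44, 1.15 and 1.19 CPM with Cre, against 1.95, 1.46 and 0.888 CPM without it. The Axin2 groups overlapped in both. The log2 differences of Axin2 for Cre were -0.17 ± 0.28 in UNx and -0.18 ± 0.29 in sham kidneys, smaller than their SE.

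**Figure D3:**
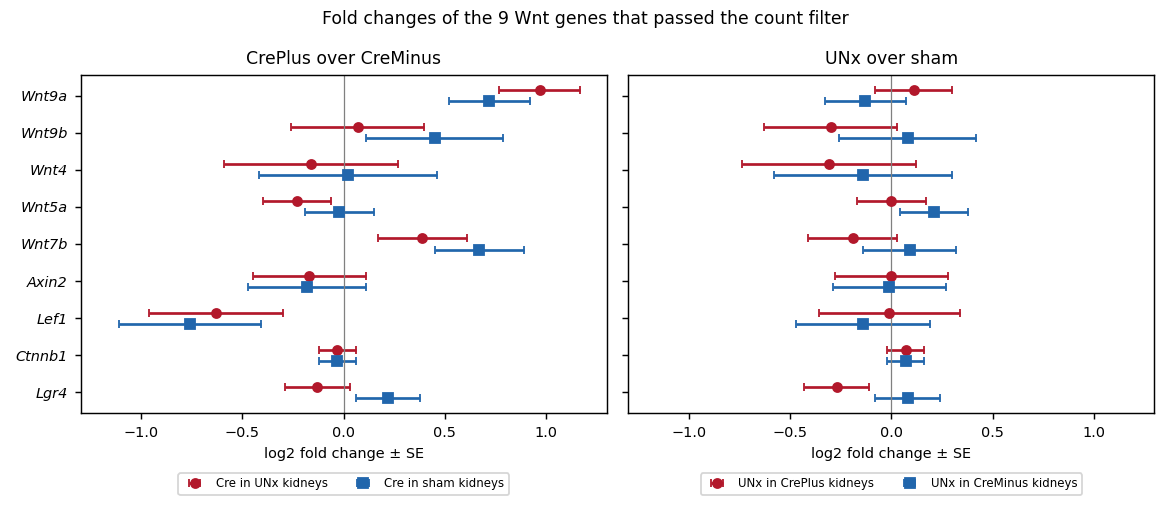
Log2 fold change with its SE for the 9 Wnt genes that passed the filter on low counts, CrePlus over CreMinus (left) and UNx over sham (right). Wnt9a stands at 0.97 and 0.72 on the left and near 0 on the right, and Lef1 at -0.63 and -0.76 on the left.

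Counted over the members, 9 of 10 passed the filter on low counts. By edgeR, 0 of these passed the test for Cre in UNx kidneys, where 0.14% of the 14970 tested genes did, while DESeq2 called 1, Wnt9a. DESeq2 called more of all genes than edgeR did in each Cre comparison, with the counts given in the last section. In sham kidneys both tools called 0 members, and edgeR called 0.0267% of all genes. Averaged over surgery both tools called 1 member, Wnt9a, and edgeR called 0.521% of all tested genes. Nothing is read from the Wnt9a calls, because its Cre difference led to its choice. The averaged edgeR call of Wnt9a was not made with female libraries alone, with a term for depth, with the deep libraries thinned, or without any 1 of 10 of the 12 libraries. In UNx kidneys 1 member of 9 had CrePlus and CreMinus libraries that did not overlap, beside 15.8% of all tested genes. In sham kidneys 3 of 9 did not overlap, Wnt9a and Wnt7b higher and Lef1 lower, beside 8.16% of all genes. Over both operations together, 1 of 9 did not overlap, beside 1.28% of all genes. The median log2 difference of the 9 members was -0.13 in UNx and 0.02 in sham kidneys, against -0.01 and 0.00 for all tested genes.

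For UNx against sham, no member passed the test in CrePlus kidneys (edgeR, lowest adjusted p = 0.809) or in CreMinus kidneys (lowest adjusted p = 1). No member had an unadjusted p under 0.05 there, and DESeq2 called 0 of them. Of all tested genes edgeR called 0% in either comparison, and DESeq2 called 9 and 2 genes. In CrePlus kidneys 1 of 9 members, Wnt7b, did not overlap between UNx and sham, beside 9.78% of all genes. In CreMinus kidneys 0 of 9 did not overlap, beside 4.86%. The fold changes of UNx over sham ran from -0.31 (Wnt4) to 0.11 (Wnt9a) in CrePlus kidneys and from -0.14 (Wnt4 and Lef1) to 0.21 (Wnt5a) in CreMinus kidneys. The Cre and UNx comparisons share libraries with each other and are not independent.

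In the authors' deposited table for UNx kidneys, Wnt9a has a log2 fold change of 0.73, CrePlus over CreMinus, and it is among the 267 genes called there. Their deposited table for sham kidneys gives Wnt9a 0.37, not called, and the second version of that table, which leaves out sham CrePlus replicate 1, gives the same. For Lef1 the authors' deposited table gives -0.25 in UNx kidneys, not called. These are the authors' values for the same libraries.

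A wider list of 100 other Wnt pathway genes in 9 roles was examined with the same fit, of which 81 passed the filter on low counts. None passed the test in any comparison by edgeR. For Cre in UNx kidneys 13 of the 81 had an unadjusted p under 0.05, 7 higher and 6 lower, or 16%, beside 10.7% of all tested genes, and DESeq2 called 4. Averaged over surgery 12 of the 81 did so (14.8%, beside 11.8% of all genes), 7 higher and 5 lower, and DESeq2 called 5. In sham kidneys 2 did so (2.47%, beside 4.05% of all genes), and DESeq2 called 0. Among all genes, too, DESeq2 called more than edgeR in these comparisons, as given in the last section. The share of all genes that DESeq2 called is not given here, so nothing is read from its counts of the 81. The median log2 difference of the 81 was 0.02 in UNx and -0.01 in sham kidneys. CrePlus and CreMinus libraries did not overlap for 16% of the 81 in UNx kidneys, beside 15.8% of all tested genes. In sham kidneys this share was 8.64%, beside 8.16% of all genes.

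**Figure D4:**
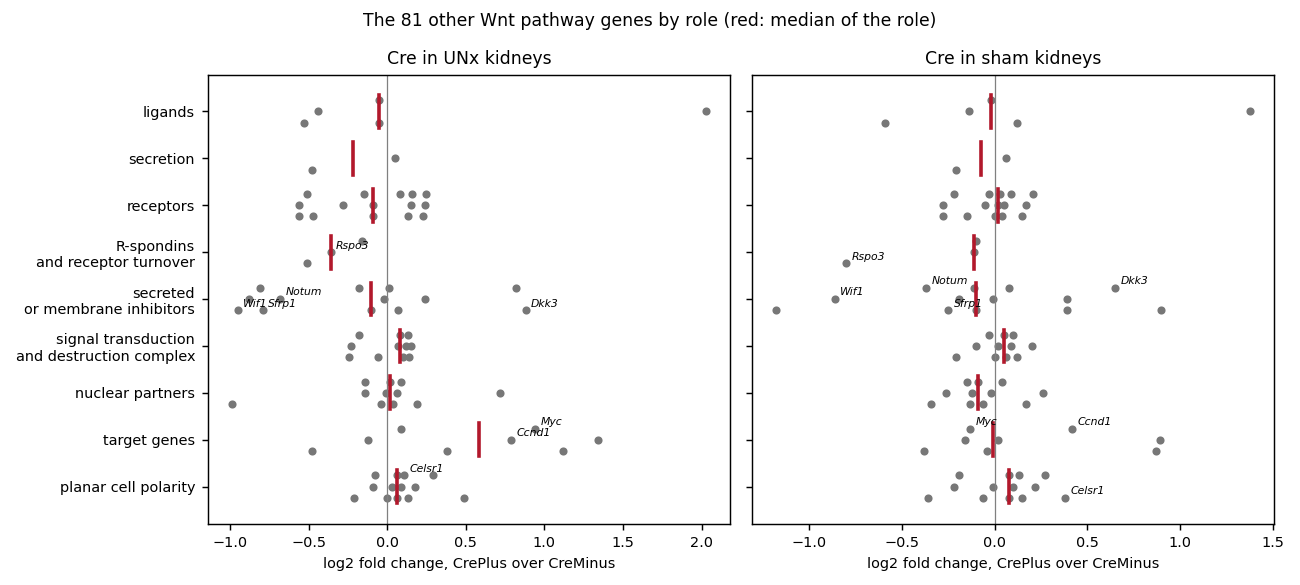
Log2 fold change, CrePlus over CreMinus, of each of the 81 other Wnt pathway genes (points) by role, in UNx kidneys (left) and sham kidneys (right), with the median of each role in red. Named points are the 2 genes with the lowest p above 0 and below 0 in each Cre comparison. Target genes have a median of 0.59 in UNx kidneys and -0.01 in sham kidneys, against -0.01 and 0.00 for all tested genes.

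For Cre in UNx kidneys the genes of smallest p were Dkk3 above 0 and Sfrp1 below 0. Averaged over surgery they were Dkk3 and Notum. The pathway list groups these genes under secreted or membrane inhibitors, and none passed the test (edgeR). In sham kidneys the genes of smallest p were Dkk3 above 0 and Rspo3, an R-spondin gene, below 0. Dkk3, a secreted Dickkopf family member, had 30.3, 31.8 and 28 CPM in UNx CrePlus kidneys, against 13.6, 15.9 and 19.5 CPM in UNx CreMinus kidneys. It had 31.7, 33.2 and 21.3 CPM in sham CrePlus kidneys, against 20.6, 21 and 13.5 CPM in sham CreMinus kidneys. All 6 CrePlus kidneys stood above all 6 CreMinus kidneys, the nearest at 21.3 and 21 CPM. Of the 81 genes 1 (1.23%) had no such overlap in either direction, beside 1.28% of all tested genes. The log2 difference of Dkk3 was 0.88 ± 0.21 in UNx kidneys (edgeR, adjusted p = 0.195), 0.65 ± 0.21 in sham kidneys (adjusted p = 1) and 0.77 ± 0.15 averaged over surgery (adjusted p = 0.0534), which missed the threshold of 0.05. The averaged comparison had 7 alternative settings and 12 fits with a library left out, and Dkk3 passed in 6 of all these. Of the 12 it passed only without sham CrePlus replicate 3. It did not pass with a depth term or in female libraries alone.

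Sfrp1, a secreted Frizzled-related decoy, had 175 to 246 CPM in UNx CrePlus kidneys and 333 to 363 CPM in UNx CreMinus kidneys, with no overlap. Its log2 difference was -0.79 ± 0.22 (edgeR, adjusted p = 0.291), and in sham kidneys the ranges, 141 to 280 CPM with Cre and 218 to 258 CPM without it, overlapped. Notum, an enzyme that removes the lipid from Wnt ligands, had 12.5 to 19.7 CPM in UNx CrePlus and 22 to 27.5 CPM in UNx CreMinus kidneys, a log2 difference of -0.68 ± 0.20 (edgeR, adjusted p = 0.328). Wif1, a secreted Wnt-binding inhibitor, had 1.63 to 2.01 CPM in sham CrePlus and 3.1 to 3.35 CPM in sham CreMinus kidneys, a log2 difference of -0.86 ± 0.46 (edgeR, adjusted p = 1). Of the 13 tested secreted or membrane inhibitors, 5 had a positive and 8 a negative difference under each operation.

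Among the 8 tested target genes, which leave out the members Axin2 and Lef1, 6 had a positive difference for Cre in UNx kidneys and 4 in sham kidneys. Their median was 0.59 in UNx and -0.01 in sham kidneys, against -0.01 and 0.00 for all tested genes. Besides Myc and Ccnd1, the UNx values were 1.34 ± 0.49 (Cd44), 1.12 ± 0.66 (Nkd2), 0.38 ± 0.42 (Nkd1) and 0.09 ± 0.34 (Sp5). Those of Apcdd1 (-0.12 ± 0.37) and Tnfrsf19 (-0.48 ± 0.35) were negative. Myc, a growth-promoting transcription factor gene, had 7.07 to 9.75 CPM in UNx CrePlus and 3.09 to 5.24 CPM in UNx CreMinus kidneys, a log2 difference of 0.94 ± 0.25 (edgeR, adjusted p = 0.277). In sham kidneys Myc had 5.04 to 6.65 CPM with Cre and 4.63 to 7.92 CPM without it. The difference between these Myc effects was 1.07 ± 0.35 on the log2 scale and did not pass the test (edgeR, adjusted p = 1). Ccnd1, the cyclin D1 gene, had 477 to 609 CPM in UNx CrePlus and 264 to 401 CPM in UNx CreMinus kidneys. Averaged over surgery its log2 difference was 0.60 ± 0.15 (edgeR, adjusted p = 0.14). The sums of macrophage, fibroblast, proliferation and injury markers were on average highest in these UNx CrePlus libraries, and their part in the Myc and Ccnd1 levels was not tested.

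In sham kidneys Celsr1, a planar cell polarity receptor gene, had 55 to 84 CPM with Cre and 51 to 60.1 CPM without it, a log2 difference of 0.38 ± 0.15 (edgeR, adjusted p = 1). Rspo3, an R-spondin that binds Lgr4, had 0.381 to 0.956 CPM in sham CrePlus and 1.03 to 1.31 CPM in sham CreMinus kidneys, a log2 difference of -0.80 ± 0.43 (edgeR, adjusted p = 1). The Frizzled and other receptor genes, 15 tested, had medians of -0.09 in UNx and 0.02 in sham kidneys. The 11 genes of signal transduction and the destruction complex, which hold Apc, Axin1 and Gsk3b, had medians of 0.08 and 0.05.

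For UNx against sham, 4 of the 81 had an unadjusted p under 0.05 in CrePlus kidneys (4.94%, beside 6.83% of all genes). The smallest p in each direction belonged to Tcf7, a TCF factor gene (0.80 ± 0.35 on the log2 scale), Amer1, a gene of the destruction complex (0.31 ± 0.14), Btrc, which encodes the ubiquitin ligase subunit for beta-catenin (-0.23 ± 0.09), and Rnf43, which removes Frizzled receptors (-0.58 ± 0.24). Their lowest edgeR adjusted p was 0.709. In CreMinus kidneys 1 of the 81 did so (1.23%, beside 1.3% of all genes), Sfrp1, with 333 to 363 CPM in UNx and 218 to 258 CPM in sham kidneys, a log2 difference of 0.51 ± 0.22 (edgeR, adjusted p = 1). Next to it were Sostdc1, an inhibitor gene (0.38 ± 0.19), Myc (-0.55 ± 0.25) and the receptor gene Fzd1 (-0.18 ± 0.11), none of which passed the test. For the interaction of Cre and UNx, 2 of the 81 did so, Myc and Btrc (2.47%, beside 1.85% of all genes). Tcf7 (0.98 ± 0.50), Btrc (-0.33 ± 0.13) and Sfrp1 (-0.53 ± 0.31) followed Myc, and none passed the test (edgeR, adjusted p = 1 for each).

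The genes whose log2 CPM most resembled that of Wnt9a over the 12 libraries were Ptgds, which makes prostaglandin D2 in many tissues, with a Pearson r of 0.95, and Chpf, of chondroitin sulfate synthesis, with 0.95. The ectodysplasin receptor gene Eda2r followed with 0.94, 9430069I07Rik with 0.93 and the Notch fucosyltransferase gene Pofut1 with 0.92, among 14969 genes compared. The libraries share the Cre groups, and this ranking is a description of these 12 libraries. After the mean of each group was removed, r was 0.46 for Ptgds, 0.35 for Chpf, 0.44 for Eda2r, 0.69 for 9430069I07Rik and 0.52 for Pofut1. Without the 2 libraries farthest from the Wnt9a median (UNx CrePlus replicate 3 and UNx CreMinus replicate 1), r ranged between 0.87 for Pofut1 and 0.96 for Ptgds and Chpf. Ptgds averaged 51.5 ± 23.2 CPM in UNx CrePlus and 3.22 ± 0.792 CPM in UNx CreMinus kidneys, and 28.3 ± 5.54 CPM in sham CrePlus and 3.49 ± 1.39 CPM in sham CreMinus kidneys (SD, n = 3 each).

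Of the Wnt genes, Dkk3 (r = 0.86), the receptor gene Fzd8 (r = 0.77) and the ligand gene Wnt10a (r = 0.76) resembled Wnt9a most, with 12 libraries each, and r after removal of the group means was 0.33, 0.16 and 0.31. Wnt10a had 1.67, 1.43 and 0.504 CPM in UNx CrePlus kidneys and 0.18, 0.184 and 0.557 CPM in UNx CreMinus kidneys, which overlapped. In sham kidneys Wnt10a had 0.89, 0.574 and 0.346 CPM with Cre and 0.272, 0.329 and 0.0935 CPM without it, which did not overlap. Its log2 differences were 2.03 ± 0.61 in UNx (edgeR, adjusted p = 0.329), 1.38 ± 0.68 in sham (adjusted p = 1) and 1.70 ± 0.45 averaged over surgery (adjusted p = 0.166), none of which passed the test. Among the other members, r with Wnt9a was highest for Wnt7b (0.64) and lowest for Lef1 (-0.54), and that of Axin2 was -0.07. After removal of the group means, r was 0.76 for Lef1, 0.57 for Wnt4 and Axin2, and 0.55 for Wnt5a. It was 0.13 for Wnt9b, 0.05 for Ctnnb1, -0.17 for Wnt7b and -0.21 for Lgr4. The Lef1 values rest on 7 to 17 counts per library.

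**Figure D5:**
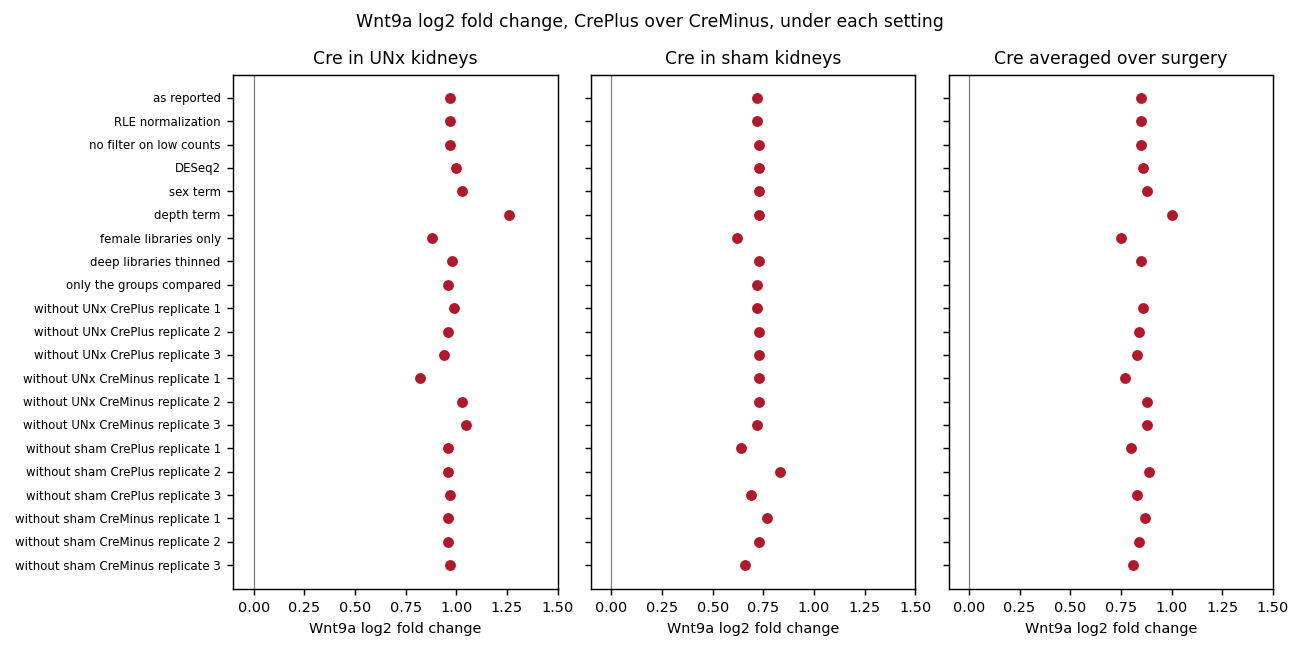
Log2 fold change of Wnt9a, CrePlus over CreMinus, as reported and under each alternative setting, in UNx kidneys, in sham kidneys and averaged over surgery. The averaged value runs between 0.75 with female libraries alone and 1.00 with a term for depth. Every point lies right of 0, which gives no support because Wnt9a was chosen on its Cre difference.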

How the data were processed

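Read counts per gene were measured by RNA-seq in whole kidney from 12 labelled samples in 4 groups of 3 libraries. The deposited tables hold whole-number counts, made per the submitters' processing notes with FastQC 0.11.5, cutadapt 1.11, HTSeq and DESeq2 on mm10 and GRCm38. The aligner, annotation and counting strand were not given in the sources used here. Of the deposited tables, 4 also hold the authors' log2 fold changes and p-values. Per the labels' protocols, libraries were made with SMART-Seq v4, an amplifying full-length kit that does not mark strand and has no molecular identifiers.

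Of 24067 rows, 5 repeated symbols were kept once. The 35 library columns that recur in other tables were identical. Counts were fitted in R 4.3.3 with edgeR 4.0.16 (filterByExpr, 14970 genes kept, TMM scaling, 4 group means over all 12 libraries, glmQLFit and glmQLFTest). A gene was called where its p, adjusted over all tested genes by Benjamini-Hochberg, was under 0.05. CPM uses TMM-scaled totals, and the SE is the size of the log2 fold change over the square root of F. Positions came from RefSeq GRCm38.p6, and exon lengths from the union of exons in GENCODE M21. The fit was tested on simulated data.

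The 10 genes, the 100-gene pathway list in 9 roles and the marker lists (74 of 75 genes in the table) were chosen with earlier results of these data known. Named pathway genes are those called and the 2 of smallest p in each direction per comparison, and the 5 genes and 3 Wnt genes of highest Pearson r with Wnt9a (log2 CPM, prior count 2). Wnt10a values, those of the target genes other than Myc and Ccnd1, and Apc, Axin1 and Gsk3b as examples, were added after values were seen. DESeq2 1.42.0, other normalization, filters, terms and subsets were alternatives.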

Additional observations from a re-analysis of the deposited data

How the results depend on the processing

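The 54 log2 fold changes of the 9 fitted Wnt members were recomputed under 8 alternatives and with each of the 12 libraries left out. This gave 1062 values in all. The only value called by edgeR, the averaged Cre difference of Wnt9a, kept its sign throughout. Wnt9a was chosen on that difference, so the kept sign gives it no support. Values that were not called did change sign in some settings. For example, the averaged Cre difference of Wnt4, -0.07, ran from -0.26 to 0.09 with a library left out. The averaged Cre difference of Wnt9a ranged from 0.77 to 0.89 with a library left out, and the call that led to its choice was then made only without UNx CrePlus replicate 3 or sham CrePlus replicate 2. It was not called with a depth term (1.00), in female libraries (0.75) or with deep libraries thinned (0.85). The causes were not tested. Of the 81 other pathway genes, where edgeR called 0, DESeq2 called 4 for Cre in UNx kidneys (Ccnd1, Dkk3 and Myc higher, Sfrp1 lower) and a sex term 2 (Dkk3 higher, Notum lower). Averaged over surgery, DESeq2 called 5 (Ccnd1, Dkk3 and Wnt10a higher, Notum and Sfrp1 lower) and a sex term 3 (Dkk3 higher, Notum and Sfrp1 lower). RLE normalization, no filter and thinning called 1 each (Dkk3), and leaving out a library gave 0 to 1, the 1 being Dkk3 without sham CrePlus replicate 3. Over all genes, calls for Cre in UNx kidneys were 21, against 188 with DESeq2, 112 with a sex term, 13 with RLE normalization, 9 with only those groups, 5 in female libraries, 3 with a depth term and 6 to 48 with a library left out. Calls for Cre in sham kidneys were 4, against 43 with DESeq2, 10 with a sex term, 7 in female libraries, 0 with only those groups and 0 to 3 with a library left out. Averaged over surgery they were 78, against 385 with DESeq2, 295 with a sex term, 27 in female libraries, 11 with a depth term and 25 to 136 with a library left out, the highest without UNx CrePlus replicate 3. For UNx against sham, DESeq2 called 9 genes in CrePlus and 2 in CreMinus kidneys, where edgeR called 0. The fit of only the groups compared gives no averaged or interaction value. No paired analysis was possible because the labels give no replicate numbers. At 7 to 17 counts, Lef1 is limited by depth, and Wnt11 was not tested.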
